A study of Mus musculus with 36 samples.

Results

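Caveolae are flask-shaped pits of the plasma membrane, and 8 genes that encode their coat and neck proteins were followed through brown adipocyte differentiation: Cav1, Cav2, Cavin1, Cavin2, Cavin3, Ehd2, Pacsin2 and Pacsin3. The genes were taken as a named list, drawn up with earlier results of these data known, and all 8 were found among the 55536 genes listed in each library. Every one of them had counts in all 36 libraries and was among the 16723 genes tested. The question asked of them was how their mRNA levels moved between days 0, 2 and 6, and whether they differed between cells with wild-type RXRα and cells whose RXRα cannot be phosphorylated at residue 22.

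Caveolae are built from oligomers of caveolins inserted in the inner leaflet of the membrane and from a peripheral coat of cavins, of which cavin-1 is needed for the pits to form. The ATPase EHD2 sits at the neck and holds the pit at the surface, and the F-BAR proteins PACSIN2 and PACSIN3 sense and shape the curved membrane there. Adipocytes are among the cells richest in caveolae, and the insulin receptor, the fatty acid transporter CD36 and the glucose transporter GLUT4 have been linked to these domains.

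The 36 libraries came from mouse brown pre-adipocytes of 2 Rxra-/- clones, numbered 48 and 66, in which Cas9 had introduced frameshifts in Rxra. Each clone was derived from a single cell and was then transduced with a retroviral vector carrying wild-type mouse Rxra (RxraWT) or mouse Rxra with alanine in place of serine at residue 22 (RxraSA), so all groups lacked the endogenous receptor and carried the vector. RNA was taken at confluence (day 0), after 2 days with dexamethasone, isobutylmethylxanthine and indomethacin (day 2), and after further culture without them (day 6). The medium contained insulin and triiodothyronine throughout, including the growth to confluence before day 0. Each combination of clone, genotype and day had 3 replicates. The study's own texts differ on whether these replicates are technical or independent, so p-values measure only the spread between these samples. No untransduced or non-targeted cells were analysed here, and all clone 48 libraries were in pool 1 and all clone 66 libraries in pool 2, so clone and pool cannot be told apart.

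Total counts per library ranged from 11351078 to 24349263, with a median of 18338726, and mitochondrial genes took between 1.11 and 9.09% of the counts. Rxra itself, whose reads from the disrupted gene and from the vector are counted together, averaged 161 normalised CPM, a library's counts scaled to a common total, on day 0, then 542 on day 2 and 246 on day 6, and the log2 fold change of RxraSA against RxraWT lay between -0.069 and 0.035 on these days. The adipocyte markers Pparg, Cebpa, Fabp4, Adipoq, Plin1, Lipe and Cidec were all called higher at days 2 and 6 than at day 0, and 5 of 5 tested pre-adipocyte or fibroblast markers were called lower. Of all tested genes 35.8% were called higher and 37.5% lower at day 2, and 32.9 and 35.4% at day 6. From day 2 to day 6, 4 adipocyte markers were called higher and 2 lower. Of the pre-adipocyte or fibroblast markers 3 were called higher and 2 lower in that step, against 31.9 and 30.1% of all tested genes. Ucp1, the marker that defines brown adipocytes, had at most 5 counts in any library. Of the other brown adipocyte markers, Dio2 had at most 20 counts and was not tested. Cidea, with at most 27 counts, and Ppargc1a were called higher at days 2 and 6 than at day 0. Ppargc1a averaged 13.7 CPM on day 0, 21.7 on day 2 and 21.8 on day 6. Markers of endothelial and skeletal muscle cells, which are also rich in caveolae, were low: the 6 endothelial markers summed to at most 2.43 CPM in any library and the 5 muscle markers to at most 11.8 CPM, with the defining genes Cdh5 and Kdr at no more than 1 count and Myod1 and Myh1 at 0 in every library. Macrophage markers summed to at most 12.7 CPM, and Ptprc did not exceed 1 count.

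Cav1 (ENSMUSG00000007655.16) lies on the forward strand of chromosome 6 at chr6:17306335-17341452 in GRCm38, and Cav2 (ENSMUSG00000000058.6) lies beside it on the same strand at chr6:17281185-17289115. The end of Cav2 is 17219 bases from the start of Cav1, and no annotated gene lies wholly between them. The antisense gene Gm15581, with at most 4 counts in any library, overlaps both without sharing exon bases. The other members are scattered: Cavin1 (ENSMUSG00000004044.9) at chr11:100956733-100970887, Cavin3 (ENSMUSG00000037060.3) at chr7:105480083-105482300, Ehd2 (ENSMUSG00000074364.6) at chr7:15946958-15967567 and Pacsin2 (ENSMUSG00000016664.16) at chr15:83375607-83464606 are on the reverse strand, while Cavin2 (ENSMUSG00000045954.7) at chr1:51289126-51302960 and Pacsin3 (ENSMUSG00000027257.13) at chr2:91255954-91264679 are on the forward strand. Cavin3 shares 374 bases, 22.5% of its exon length, with the gene model Gm45667 on the opposite strand, and read pairs on the shared bases were not counted for either gene, so that its level per length is uncertain. Gm45667 had at most 25 counts in any library. Pacsin3 shares 42 exon bases with Gm17281, and the other 6 members share none with another gene.

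RefSeq promoters in GRCm38.p6, spanning 250 bases before to 50 bases after an annotated start, were found for 7 of the 8 members, the exception being Cavin3. They were searched on both strands for the letters AGGTCA, the hexamer that RXR and its partners recognise, for 2 copies of it with 1 base between them, as bound by RXR with PPARγ, and for the core promoter letters TATAAA (the TATA box), CCAAT (the CCAAT box) and GGGCGG (the GC box). None of the member promoters held the direct repeat, which was present in 0.0396% of the 32851 promoters in the table. AGGTCA, present in 16.3% of all promoters, was found only in the third promoter of Pacsin2, with 1 match beginning at -56 from the start on the opposite strand and 1 after the start. GGGCGG, present in 35.7% of all promoters, was found in the promoter nearest the annotated gene start of Cav1, Cav2, Cavin1, Ehd2, Pacsin2 and Pacsin3 but not in that of Cavin2, which was 43.3% G and C against a median of 52.7%. The bases before the start are shown for Cav1, Cav2 and Cavin2, which were called higher at days 2 and 6 as described below, and for the Pacsin2 promoter with AGGTCA. Capitals mark matches, in either orientation, that lie wholly before the start. The first 3 windows lie outside annotated exons, just before their gene, at chr6:17306085-17306334, chr6:17280935-17281184 and chr1:51288876-51289125 on the forward strand, and the Pacsin2 window lies within an intron at chr15:83432851-83433100 on the reverse strand.
Cav1: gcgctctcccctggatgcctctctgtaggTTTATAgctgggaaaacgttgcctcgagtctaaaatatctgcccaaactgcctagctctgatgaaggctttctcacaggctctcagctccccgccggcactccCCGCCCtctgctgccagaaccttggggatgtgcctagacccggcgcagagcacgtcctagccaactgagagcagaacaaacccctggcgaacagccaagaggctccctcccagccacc
Cav2: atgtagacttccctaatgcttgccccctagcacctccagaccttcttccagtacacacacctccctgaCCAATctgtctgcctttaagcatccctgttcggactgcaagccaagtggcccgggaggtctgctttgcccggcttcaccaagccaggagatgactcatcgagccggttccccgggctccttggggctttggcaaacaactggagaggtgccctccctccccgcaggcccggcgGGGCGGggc
Cavin2: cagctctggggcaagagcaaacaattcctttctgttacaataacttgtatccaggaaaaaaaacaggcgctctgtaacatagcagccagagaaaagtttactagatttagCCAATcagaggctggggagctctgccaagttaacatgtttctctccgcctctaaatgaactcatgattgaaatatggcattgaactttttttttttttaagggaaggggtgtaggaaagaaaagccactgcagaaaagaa
Pacsin2: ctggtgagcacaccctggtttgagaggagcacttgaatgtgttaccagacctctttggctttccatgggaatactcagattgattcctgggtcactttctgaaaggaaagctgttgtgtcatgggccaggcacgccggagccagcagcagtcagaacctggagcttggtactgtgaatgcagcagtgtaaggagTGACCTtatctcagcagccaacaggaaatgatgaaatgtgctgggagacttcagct
In the neighbouring caveolin genes the windows differ in the motifs they hold. Cav1 has TATAAA and GGGCGG on the opposite strand, beginning at -221 and -118, whereas Cav2 has CCAAT at -182 and GGGCGG at -9. Cavin2 has a single match, CCAAT at -140. A match describes these letters only and is not evidence of binding.

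Per length of exon, the caveolins and cavin-1 dominated the 8 genes. At day 0 the order by CPM per kilobase was Cav1 (193 ± 21.7, SD, n = 12), Cavin1 (148 ± 52.0), Cav2 (53.6 ± 16.9), Ehd2 (34.0 ± 12.7), Cavin3 (31.7 ± 4.15), Pacsin2 (19.7 ± 3.76), Cavin2 (19.5 ± 11.1) and Pacsin3 (7.545 ± 0.662). Several neighbours in this order were not separated: Cav1 was above Cavin1 in 8 of 12 libraries, Ehd2 above Cavin3 in 7 and Pacsin2 above Cavin2 in 8. At day 6 Cav2 had passed Cavin1 in 10 of 12 libraries and Cavin2 had moved above Ehd2 and Cavin3 in mean level, so that over both clones the order became Cav1 (431 ± 112), Cav2 (215 ± 47.7), Cavin1 (193 ± 60.6), Cavin2 (59.6 ± 19.5), Cavin3 (47.0 ± 8.87), Ehd2 (46.3 ± 22.7), Pacsin2 (13.9 ± 2.32) and Pacsin3 (6.29 ± 0.832). Cavin2, Cavin3 and Ehd2 overlapped at that day, with Cavin2 above Cavin3 and Cavin3 above Ehd2 in 6 of 12 libraries each. The place of Cavin2 depended on the clone: it was above Cavin3 in 6 of 6 libraries of clone 66 and in 0 of 6 of clone 48, where its mean was 42.0 CPM per kilobase against 48.8 for Cavin3 and 44.6 for Ehd2. Counted from the highest level per length of the 16723 tested genes, Cav1 ranked 160 at day 0 and 61 at day 6, and Pacsin3 ranked 6035 and 6682. The sum over the 8 genes was 507.5 ± 80.3 CPM per kilobase on day 0, 780.2 ± 79.5 on day 2 and 1013 ± 133 on day 6.

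Between day 0 and day 2 the caveolae genes moved in opposite directions. Both caveolins, Cavin2 and Ehd2 rose about 2-fold, Cavin3 and Pacsin3 fell to 0.43 and 0.33 of their level, and Cavin1 and Pacsin2 did not pass the test. By day 6 the fall of Cavin3 had turned into a rise over day 0, while Pacsin3 had returned to 0.83 of its day 0 level. Genes were called at a Benjamini-Hochberg adjusted p-value under 0.05 in edgeR's quasi-likelihood test over all tested genes. From day 0 to day 2, 4 members were called higher and 2 lower, against 73.3% of all tested genes called, 35.8% higher and 37.5% lower. From day 0 to day 6 there were 4 higher and 2 lower, against 68.3% of all genes called, 32.9% higher and 35.4% lower. From day 2 to day 6 there were 5 higher and 1 lower, against 62% of all genes called, 31.9% higher and 30.1% lower. These shares of 6 of 8 are near the background of the whole transcriptome, the 3 comparisons share libraries, and in bulk RNA fewer expressing cells cannot be told apart from less RNA per cell. Median log2 fold changes of the members were 0.49, 0.51 and 0.58 in these 3 comparisons, and those of all tested genes -0.015, -0.034 and 0.012. Scaling by library size alone moved the median of all genes to -0.27, -0.22 and 0.083 and lowered the share of called genes that were higher from 48.9 to 33.6% at day 2 and from 48.2 to 34.9% at day 6 against day 0, with 4 members higher in both.

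**Figure D1:**
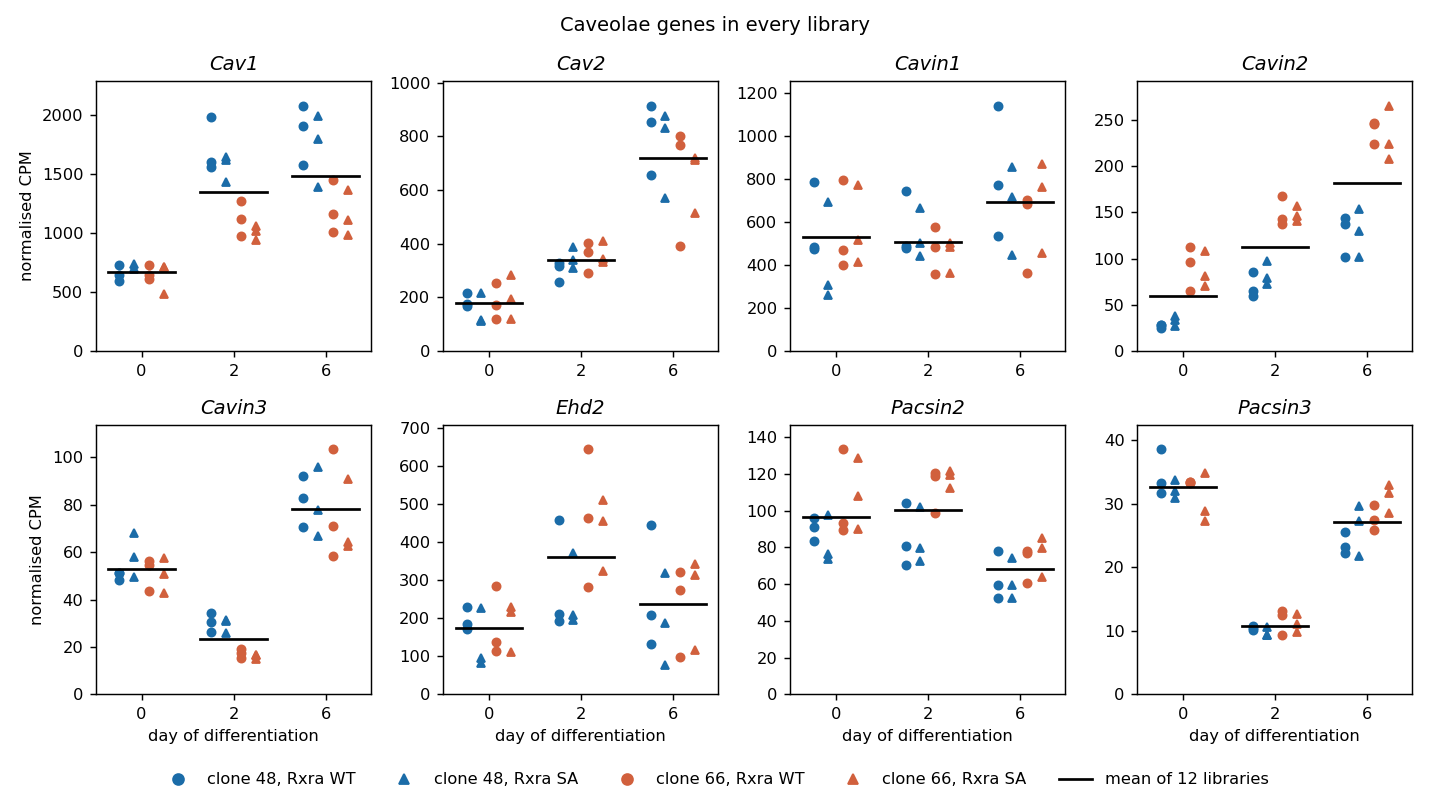
Normalised CPM of each caveolae gene (vertical axes, each starting at 0) in all 36 libraries by day of differentiation, with clones by colour, genotypes by shape and the mean of 12 libraries as a bar. Cav1 and Cav2 at day 6 lie above every day 0 library, the Cavin3 and Pacsin3 libraries of day 2 lie below all others, and clones separate in Cavin2.

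**Figure D2:**
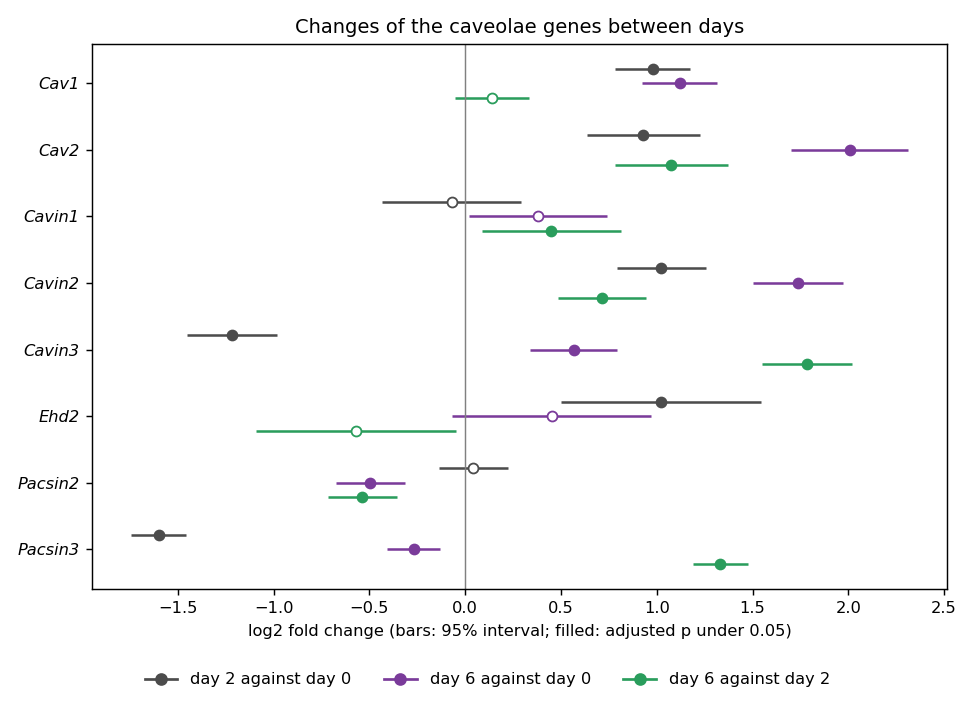
Log2 fold changes of the 8 genes between days with 95% intervals (horizontal axis), where filled points had an adjusted p under 0.05. Cav2 at day 6 against day 0 had the highest value of the 8 genes, 2.01, and Pacsin3 at day 2 against day 0 the lowest, -1.6.

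Cav1, the caveolin without which most non-muscle cells lack caveolae, rose early and then stayed. Its level spanned 482 to 739.9 CPM around a median of 697 on day 0, 944 to 1978 around 1350 on day 2, and 981 to 2079 around 1422 on day 6. Every day 2 and every day 6 library was above every day 0 library, whereas days 2 and 6 overlapped throughout. Among all tested genes 27.7% had separate groups of 12 at day 2 against day 0 and 23.2% at day 6 against day 0. The log2 fold change was 0.98 ± 0.096 (SE, adjusted p = 3.77e-11, edgeR) at day 2 and 1.12 ± 0.096 (adjusted p = 1.82e-12, edgeR) at day 6, and from day 2 to day 6 it was 0.14, with a 95% interval from -0.053 to 0.33.

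Cav2, which is carried to the surface together with caveolin-1, rose in both steps. It spanned 113 to 285 CPM around a median of 174 on day 0, 257 to 412 around 336 on day 2, and 390.3 to 914 around 743 on day 6. The day 6 libraries were all above those of day 0, with a log2 fold change of 2.01 ± 0.15 (adjusted p = 4.82e-14, edgeR). The first step gave 0.93 ± 0.15 and the second 1.08 ± 0.15, with adjusted p-values in edgeR of 7.63e-07 and 7.85e-08.

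Cavin1, the coat protein needed for pit formation, varied widely within each day. Its libraries spanned 260 to 798 CPM around a median of 480 on day 0, 358 to 747 around 488 on day 2, and 365 to 1143 around 712 on day 6, and all 3 days overlapped. The log2 fold change was -0.070 at day 2 (95% interval -0.43 to 0.29) and 0.38 at day 6 (0.017 to 0.74, adjusted p = 0.05845, edgeR), a value close to the threshold that was called in 8 of 21 alternative settings. Among these was the fit with the replicate number as a block shared across days (0.39 ± 0.10, adjusted p = 0.00102, edgeR). From day 2 to day 6 Cavin1 was called higher at 0.45 ± 0.18 (adjusted p = 0.028, edgeR), a call that was lost in either clone alone, where the log2 fold change was no smaller (0.45 in clone 48 and 0.47 in clone 66, adjusted p = 0.171 and 0.098), and without replicate 2 of clone 48 or of clone 66 (0.0755 and 0.0822).

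Cavin2, a phosphatidylserine-binding cavin that promotes membrane curvature, had the second largest rise of the 8 genes at day 6. It spanned 25.3 to 113 CPM around a median of 51.3 on day 0, 59.1 to 167 around 117 on day 2, and 102 to 266 around 181 on day 6. The ranges of the 3 days overlapped over both clones together, but within each clone all 6 libraries of day 6 were above all 6 of day 0. The share of all tested genes separate within a clone was not counted. It is at least the 23.2% that were separate at day 6 against day 0 over both clones. The log2 fold change was 1.02 ± 0.11 at day 2 and 1.74 ± 0.12 at day 6 (adjusted p = 8.39e-10 and 2.68e-15, edgeR).

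Cavin3, a cavin linked to signalling through protein kinase C delta and ERK, fell and then rose. It spanned 42.8 to 68.2 CPM around a median of 51.4 on day 0, 15.0 to 34.3 around 22.6 on day 2, and 58.4 to 104 around 74.5 on day 6. All day 2 libraries were below those of both other days. Among all tested genes 27.7% had separate groups of 12 at day 2 against day 0 and 17.1% at day 6 against day 2. The log2 fold change was -1.22 ± 0.12 at day 2 (adjusted p = 1.58e-11, edgeR), 1.78 ± 0.12 from day 2 to day 6 (2.74e-15) and 0.57 ± 0.11 at day 6 against day 0 (3.75e-05).

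Ehd2, the neck ATPase, peaked at day 2, with wide spread. It spanned 82.5 to 286 CPM around a median of 178 on day 0, 193 to 645 around 348 on day 2, and 78.8 to 446 around 242 on day 6, and no pair of days was separate. Ehd2 was called higher at day 2 than at day 0, by 1.02 ± 0.26 on the log2 scale (adjusted p = 0.00066, edgeR), and in clone 48 alone the value was 0.73 (adjusted p = 0.0993). Neither the later step, -0.57 (95% interval -1.09 to -0.050, adjusted p = 0.0522), nor day 6 against day 0, 0.45 (-0.068 to 0.97, adjusted p = 0.117), passed the edgeR test, and 7 and 2 of 21 alternative settings called them. The fit with the replicate number as a block shared across days called both, at -0.66 ± 0.14 and 0.36 ± 0.14 (adjusted p = 0.0001545 and 0.0253, edgeR).

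Both pacsins fell, each on its own schedule. Pacsin2, the widely expressed form, spanned 73.5 to 133 CPM around a median of 92.3 on day 0, 70.5 to 121 around 103 on day 2, and 52.6 to 84.9 around 69.0 on day 6. At day 6 it was lower, with log2 fold changes of -0.50 ± 0.089 against day 0 and -0.54 ± 0.089 against day 2 (adjusted p = 8.25e-06 and 2.83e-06, edgeR). At day 2 against day 0 its log2 fold change was 0.041 with TMM scaling and -0.22 with library size alone, where it was called lower (adjusted p = 0.0195, edgeR).

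Pacsin3, the form known from muscle and heart, fell at day 2 and recovered in part by day 6. It spanned 27.3 to 38.6 CPM around a median of 33.2 on day 0, 9.30 to 13.2 around 10.6 on day 2, and 21.8 to 33.1 around 27.4 on day 6, and day 2 was separate from both other days. Of all tested genes 14.2% were lower without overlap at day 2 against day 0, and 9.56% higher without overlap at day 6 against day 2. Pacsin3 then gave these log2 fold changes. It fell by 1.6 ± 0.070 on the log2 scale at day 2 (adjusted p = 1.66e-20, edgeR) and rose by 1.33 ± 0.070 from day 2 to day 6 (7.2e-18). Against day 0 it was still lower at day 6, at -0.27 ± 0.068 (adjusted p = 0.0007335, edgeR), a call not made without a filter on low counts (adjusted p = 0.0524) or in clone 66 alone, where the value was -0.086 (adjusted p = 0.51).

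The balance between the coat genes was then compared within libraries, as the ratio of CPM per kilobase, averaged over the RxraWT and RxraSA library of a clone, day and replicate number. With 6 values per day the exact two-sided permutation test cannot go below p = 0.00216, and 18 tests were adjusted together. Cav2 stood at 0.267 of Cav1 on day 0, 0.266 on day 2 and 0.501 on day 6, and the rise to day 6 passed the exact permutation test against both earlier days (both adjusted p = 0.0445). The permutation test lost these 2 calls when any 1 replicate was left out, with adjusted p between 0.0536 and 0.143. Cavin1 fell from 0.728 to 0.364 of Cav1 between days 0 and 2 (adjusted p = 0.0195, exact permutation test) and stood at 0.441 at day 6, and this call was lost without replicate 2 of clone 48 or replicate 1 or 2 of clone 66 (adjusted p up to 0.0714). Cavin3 stood at 0.225, 0.0967 and 0.251 of Cavin1 on the 3 days, lower at day 2 than at day 0 (adjusted p = 0.0234) and than at day 6 (adjusted p = 0.013) in the exact permutation test. The first of these calls was lost without replicate 1 of clone 48 or any replicate of clone 66 (adjusted p up to 0.0816).

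Pacsin3 stood at 0.388 of Pacsin2 on day 0, 0.124 on day 2 and 0.454 on day 6. All day 2 libraries were below all others, and both differences from day 2 had an adjusted p of 0.013 in the exact permutation test. Pacsin3 alone was already separate at day 2 from both other days, so this ratio is not a result independent of it. The share of other gene pairs with separate ratios was not counted. Cavin2 stood at 0.119, 0.249 and 0.306 of Cavin1, and no pair of days passed (adjusted p = 0.125, 0.0536 and 0.639, exact permutation test). Ehd2 stood at 0.165, 0.17 and 0.097 of Cav1, with library values spread from 0.0266 to 0.447 over the days, and no pair of days passed.

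**Figure D3:**
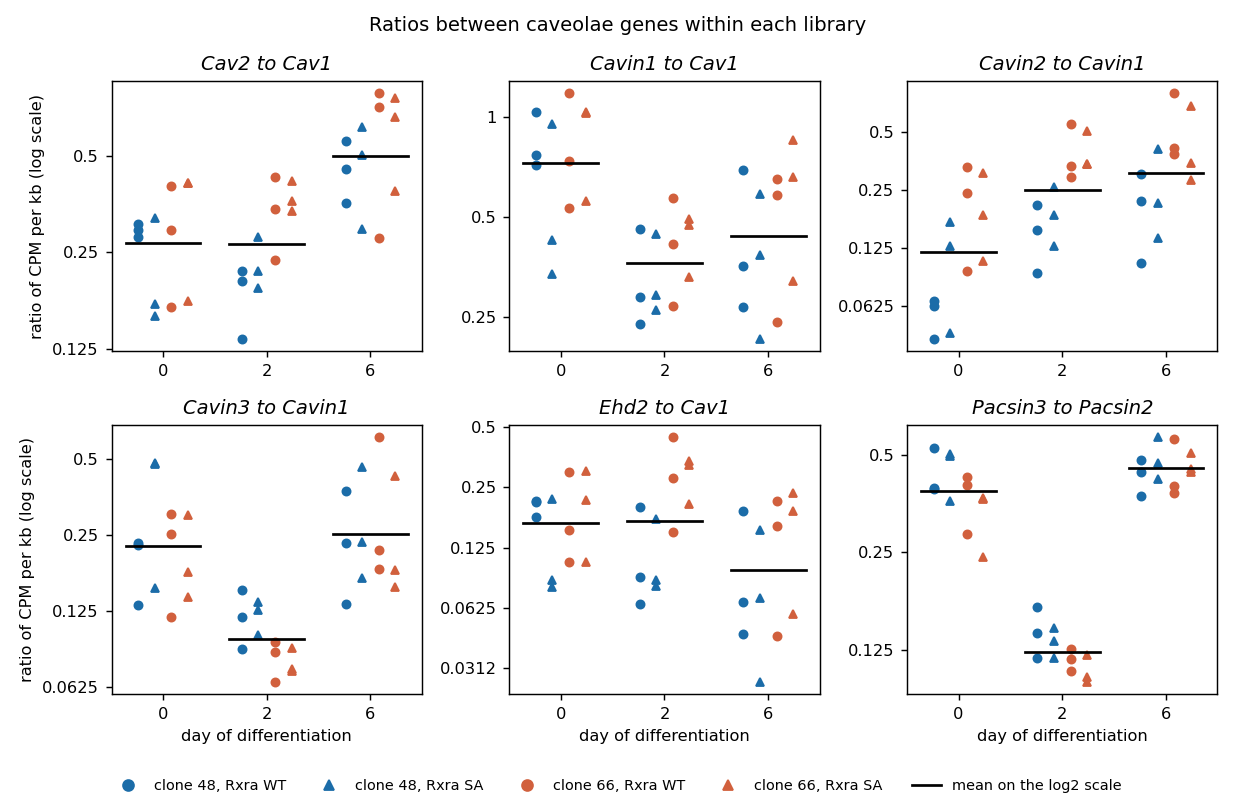
Ratio of CPM per kilobase between pairs of caveolae genes (log scale) in each of the 36 libraries by day, with the mean on the log2 scale as a bar. Pacsin3 to Pacsin2 at day 2 lies between 0.0995 and 0.169, below every library of days 0 and 6, as does Pacsin3 alone in its CPM.

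RxraSA cells did not differ detectably from RxraWT cells in any caveolae gene. None of the 8 was called on day 0, 2 or 6 in edgeR, where 0% of all tested genes were called, none had an unadjusted p under 0.05, and DESeq2 also called 0. Log2 fold changes of RxraSA against RxraWT ranged from -0.26 to 0.16 over the 8 genes and 3 days. Cav1 averaged 658 ± 56.2 CPM in RxraWT and 673 ± 94.7 in RxraSA on day 0 (SD, n = 6). On day 2 the 2 genotypes had 1416 ± 369 and 1286 ± 317 CPM, and on day 6 they had 1531 ± 414 and 1440 ± 390.2. Its 95% intervals on the log2 scale were -0.25 to 0.29, -0.41 to 0.13 and -0.36 to 0.19 on these days.

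With the replicate number as a block within each day, 0 members were called between genotypes on any day. The intervals set what could be seen in edgeR without pairing, where the spread between replicates enters them. Pacsin3 had the narrowest, for example -0.28 to 0.12 at day 2, and Ehd2 the widest, -0.99 to 0.48 at day 0, so that for Ehd2 a change of almost 2-fold lay inside the interval. Ehd2 averaged 188 ± 62.3 CPM in RxraWT and 161 ± 71.0 in RxraSA on day 0. The corresponding means were 376 ± 177 and 344 ± 128 on day 2, then 247 ± 129 and 227 ± 114 on day 6. The genotypes overlapped on every day. In the interaction of genotype with time no member was called by edgeR or DESeq2, and Pacsin3 from day 0 to day 6 was the only one with an unadjusted p under 0.05, with a log2 difference of 0.28 (95% interval 0.0015 to 0.55, edgeR adjusted p = 1). RxraWT libraries had 34.0 ± 2.37 CPM of Pacsin3 at day 0 and 25.7 ± 2.73 at day 6, and RxraSA libraries 31.3 ± 2.86 and 28.7 ± 3.95. The effect of genotype was called different between clones in none of the 8 genes on any day, with no unadjusted p under 0.05 in edgeR without pairing and 0 calls in DESeq2. In same-numbered pairs at day 6, however, both Ehd2 and Cavin1 were lower in RxraSA in 3 of 3 pairs of clone 48 and higher in 3 of 3 pairs of clone 66, and 8.36% of all tested genes had this or the reverse arrangement. Cavin1 in clone 48 was at 535, 774 and 1143 CPM in RxraWT replicates 1, 2 and 3 and at 447, 719 and 855 in RxraSA, and in clone 66 at 365, 704 and 686 in RxraWT and at 458, 764 and 871 in RxraSA. The log2 difference of the genotype effect between clones was 0.53 for Cavin1 (95% interval -0.52 to 1.58) and 0.58 for Ehd2 (-0.95 to 2.11). With the replicate number of each clone as a block shared across days it was 0.51 ± 0.23 and 0.59 ± 0.34, neither called (adjusted p = 0.997 for both, edgeR). At day 0 the same fit gave 0.58 ± 0.23 and 0.76 ± 0.34, neither called (adjusted p = 0.576 for both, edgeR). Both genes were lower in RxraSA in 3 of 3 pairs of clone 48 at day 0. In clone 66 Cavin1 was higher in 2 of 3 pairs and Ehd2 in 1 of 3. The share of all tested genes with such a pattern at day 0 was not counted. The difference between clones at day 6 was not tested with pairs within that day alone.

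Clone 66 differed from clone 48 in up to 4 of the genes, with Cavin2 called on every day. Cavin2 in clone 48 spanned 25.3 to 37.8 CPM around a median of 28.1 on day 0, 59.1 to 97.9 around 75.7 on day 2, and 102 to 154 around 134 on day 6. In clone 66 it spanned 64.8 to 113 around 89.0, 137 to 167 around 144 and 208 to 266 around 235 on the same days. The clones did not overlap on any day, against 13.7, 18.6 and 15.2% of all tested genes, and the level of clone 66 at day 0 lay within the range of clone 48 between days 2 and 6. Log2 fold changes of clone 66 against clone 48 were 1.58 ± 0.14 on day 0, then 0.96 ± 0.14 on day 2 and 0.88 ± 0.14 on day 6 (adjusted p = 5.42e-10, 2.31e-06 and 1.125e-05, edgeR). Of all tested genes 23.7% were called between clones on day 0, 30% on day 2 and 26.2% on day 6, and the members called were 1, 4 and 2. At day 2 these were 2 higher and 2 lower, against 14.5% of genes higher and 15.5% lower, and at day 6 there were 1 higher and 1 lower, against 13.4 and 12.8%.

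Cav1 was alike in both clones at day 0, with medians of 697 and 678 CPM, and was lower in clone 66 later. At day 2 clone 48 ranged from 1431 to 1978 CPM (median 1609) and clone 66 from 944 to 1268 (median 1037). The clones did not overlap at that day, which held for 18.6% of all tested genes. At day 6 they overlapped, with 1393 to 2079 CPM in clone 48 and 981 to 1450 in clone 66. The fold change of clone 66 was -0.63 ± 0.12 at day 2 and -0.60 ± 0.12 at day 6 on the log2 scale (adjusted p = 0.000142 and 0.0002655, edgeR). Cavin3 at day 2 ranged from 25.9 to 34.3 CPM in clone 48 and from 15.0 to 19.3 in clone 66, without overlap, a log2 difference of -0.84 ± 0.13 (adjusted p = 1.18e-05, edgeR), and did not differ detectably between clones at day 0 (-0.089, 95% interval -0.35 to 0.17) or day 6 (-0.11, -0.37 to 0.15). Pacsin2 at day 2 was higher in clone 66 by 0.44 ± 0.13 (adjusted p = 0.0112, edgeR), a call lost without replicate 1 or 2 of clone 48 or replicate 2 of clone 66 (adjusted p = 0.108, 0.0754 and 0.0816). The adipocyte markers moved with clone too: 3 of 7 were called lower in clone 66 on day 0, 2 on day 2 and 0 on day 6, and Rxra was lower in clone 66 at day 0 (log2 fold change -0.54 ± 0.16, adjusted p = 0.0117, edgeR). Their part in these results was not tested.

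The course over time differed between clones in 3 genes. From day 0 to day 2 Cav1 rose by a log2 of 1.24 ± 0.11 in clone 48 alone, and the rise in clone 66 was smaller by a log2 difference of -0.55 (adjusted p = 0.0424, edgeR), while the fall of Cavin3, -0.88 ± 0.12 in clone 48 alone, was deeper in clone 66 by -0.75 (adjusted p = 0.00918). From day 0 to day 6 the rise of Cavin2 in clone 66 was smaller by -0.70 (adjusted p = 0.0339, edgeR). From day 2 to day 6 Cavin3 rose more in clone 66, by 0.73 (adjusted p = 0.0128, edgeR). Of all genes, 6.84% were called in the first of these tests (3.61% higher and 3.23% lower in clone 66), 3.85% in the second (2.1 and 1.75%) and 6.18% in the third (3.15 and 3.03%). Each call was lost in some of the fits with a replicate left out, which also have fewer libraries. That of Cav1 was lost without replicate 1 or 2 of clone 48 or any replicate of clone 66 (adjusted p up to 0.335), that of Cavin2 without replicate 1 or 2 of either clone (0.115 to 0.2355), that of Cavin3 to day 2 without replicate 2 or 3 of clone 48 (0.066 and 0.0822), and that of Cavin3 from day 2 to day 6 without either of these or replicate 1 of clone 66 (0.13 to 0.171).

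**Figure D4:**
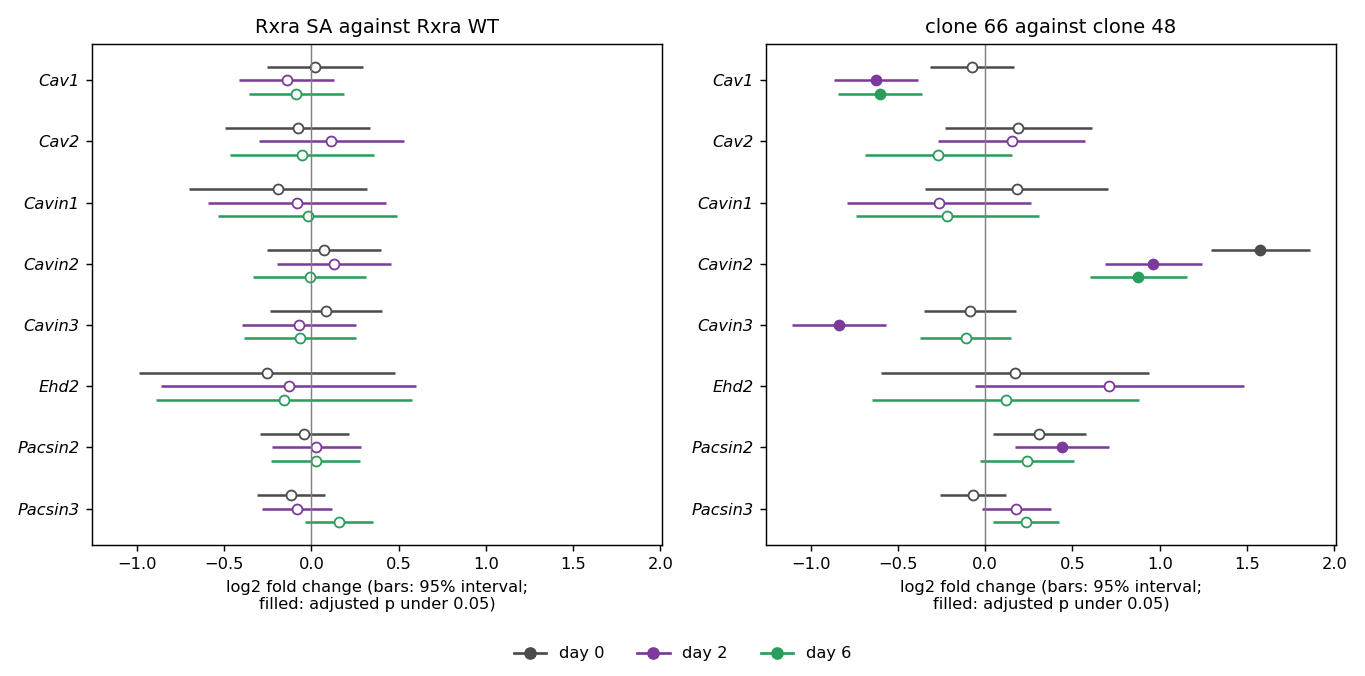
Log2 fold changes of the 8 genes between genotypes (left) and between clones (right) by day with 95% intervals, on the same axis, where filled points had an adjusted p under 0.05. All genotype points lie between -0.26 and 0.16 and are open, and Cavin2 is filled on each day between clones.

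Spread between replicates was widest in Ehd2 and Cavin1. Of the variance in log2 CPM over the 36 libraries, differences between replicates within a clone, genotype and day made up 68.4% for Cavin1 and 56.2% for Ehd2, but 28.0% for Pacsin2, 12.1% for Cav2, 7.65% for Cav1, 5.16% for Cavin3, 4.24% for Cavin2 and 2.79% for Pacsin3. Day made up 95.02% for Pacsin3, 85.5% for Cav2, 85.2% for Cavin3 and 73.0% for Cav1, and 16.7% for Cavin1, against a median of 52.9% over all tested genes. Clone made up 35.5% for Cavin2 and 21.9% for Pacsin2. Genotype took no more than 1.35%, in Cavin1.

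The replicates were not interchangeable. Ehd2 was higher in replicate 3 than in replicate 1 in all 12 sets of clone, genotype and day, by 1.34- to 4.04-fold with a median of 2.33. Cavin1, Cav2 and Pacsin2 were likewise higher in replicate 3 in 12 of 12 sets, with medians of 1.87, 1.39 and 1.30, whereas Cavin2 was lower in 11 of 12 (median 0.74) and Cav1 in 10 of 12 (median 0.89). Among all tested genes 10.4% were higher in replicate 3 in all 12 sets and 6.08% were lower in all 12.

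At day 6, for example, Ehd2 in clone 48 was at 132, 208 and 446 CPM in RxraWT replicates 1, 2 and 3 and at 78.8, 188 and 318 in RxraSA. In clone 66 the same replicates were at 98.0, 275 and 323 CPM in RxraWT and at 118, 315 and 343 in RxraSA. In each of these 4 sets replicate 1 was lowest and replicate 3 highest, and the difference between genotypes of the same number was smaller than that between replicates 1 and 3. The mitochondrial share of counts moved with the number as well, with medians of 1.91, 2.32 and 3.44% in replicates 1, 2 and 3, as did the total count, with medians of 17799006, 17867895 and 19122716, and their part in these differences was not tested.

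**Figure D5:**
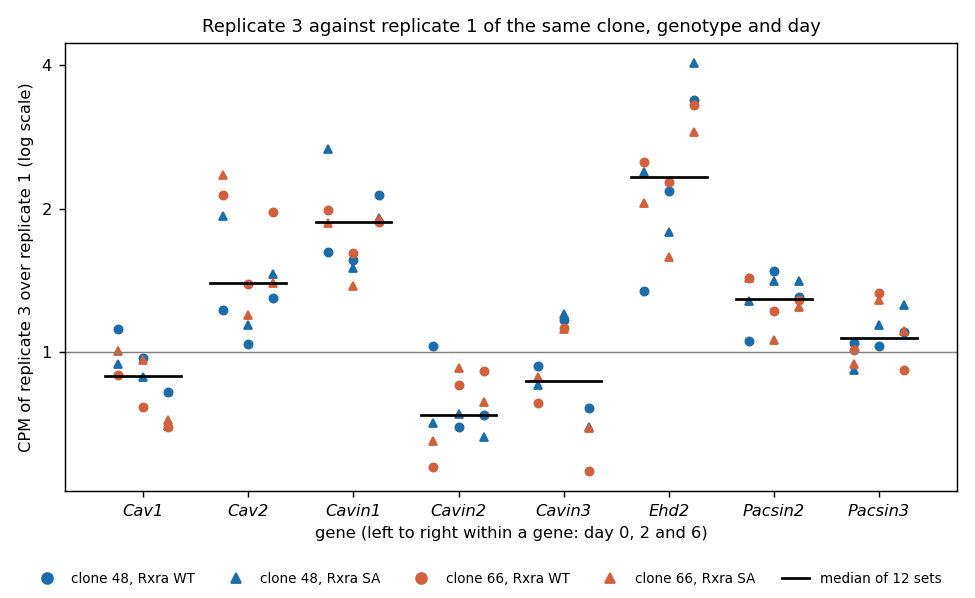
CPM of replicate 3 over replicate 1 (log scale) for each caveolae gene in the 12 sets of clone, genotype and day, with the median as a bar and a line at equality. All sets of Ehd2, Cavin1, Cav2 and Pacsin2 lie above 1, with medians from 1.30 to 2.33.

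Within a day, correlations between members are given as a description over 12 libraries that share clones and replicate numbers. Ehd2 and Cavin1 had a Pearson correlation of log2 CPM of 0.93 on day 0, 0.39 on day 2 and 0.92 on day 6, and Ehd2 and Pacsin2 of 0.81, 0.91 and 0.80. Cavin3 ran against Ehd2 on each day, at -0.91, -0.53 and -0.91. Cav1 and Cav2, which are neighbours on chromosome 6, had -0.22, -0.65 and 0.017, although over all 36 libraries, where the days enter, the value was 0.68.

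Among 9373 genes of at least moderate level, those whose log2 CPM ran most like each member over the 36 libraries were Uqcrfs1 and Atp5b for Cav1 (Pearson correlation 0.961 and 0.957), Fam126a and Ppm1b for Cav2 (0.971 and 0.964), Tkfc and Tmed10 for Cavin1 (0.889 and 0.882) and Kyat3 and Acaa2 for Cavin2 (0.936 and 0.935). For the others they were Lctl and Ccdc80 for Cavin3 (0.976 and 0.955), Ahcyl1 and Abcf1 for Ehd2 (0.963 and 0.958), Trak2 and Myo10 for Pacsin2 (0.927 and 0.924) and Hdac5 and Plekha2 for Pacsin3 (0.979 and 0.968). The 8 genes themselves were left out of this search, and the highest correlation between a pair of them over the 36 libraries was 0.78, for Cavin3 and Pacsin3. A maximum over 9373 genes is higher by selection than one over pairs of 8, so these values cannot be compared. Differences between days enter all of them.

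Of the 6 paralogues of these genes, Cav3, the muscle caveolin, had at most 1 count in any library and Ehd3 and Pacsin1 at most 1 and 5, so that Ehd1, Ehd4 and the weakly expressed Cavin4 were tested. Ehd1, an endosomal recycling protein, averaged 113 ± 29.9 CPM on day 0, 166 ± 33.6 on day 2 and 145 ± 38.3 on day 6, and was called higher at day 2 (log2 fold change 0.56 ± 0.14) and at day 6 (0.37 ± 0.14). Ehd4 fell at day 6 by 0.89 ± 0.19 on the log2 scale, from 33.4 ± 10.2 to 18.02 ± 6.48 CPM. Cavin4, the muscle cavin, rose at days 2 and 6 but did not exceed 17 counts.

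Of 12 partners and cargo proteins linked to caveolae, 10 were tested, and 4 were called higher and 4 lower at day 2, 5 higher and 4 lower at day 6 against day 0, and 7 higher and 3 lower at day 6 against day 2, where 73.3, 68.3 and 62% of all tested genes were called. The proposed cargo Cd36, Slc2a4 (GLUT4) and Insr rose at day 6, from 1.77 ± 0.622 to 1029 ± 300.5 CPM for Cd36, from 1.62 ± 0.564 to 205 ± 18.45 for Slc2a4 and from 41.0 ± 5.70 to 139 ± 39.2 for Insr. Slc2a4 was still at 12.6 ± 1.98 CPM at day 2. Among the other partners Dnm2 was called higher at day 2 and Flot2 at day 6 against day 0, Abl1 was lower at both days and Fyn at day 6, while Ror1 (at most 2 counts) and Nos3 (at most 25) were not tested. Flna, the actin cross-linker that binds caveolin-1, fell by 2.78 ± 0.15 on the log2 scale to day 6, from 1241 ± 323 to 185 ± 57.7 CPM. Src, a kinase that phosphorylates caveolin-1, and Flot1, a flotillin, fell from day 0 to day 2 by 1.59 ± 0.086 and 0.98 ± 0.085 on the log2 scale and then rose to day 6 by 0.58 ± 0.085 and 1.22 ± 0.085.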

How the data were processed

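RNA from 36 libraries was sequenced in pairs after a stranded total RNA preparation. The authors aligned reads with STAR 2.7.0d to GRCm38 and counted read pairs per gene with featureCounts 1.6.2 on GENCODE M21 exons, and the deposited counts are whole numbers per gene that were not normalised. Strand was not used, and pairs that overlapped several genes or mapped to several places were not counted. Here the counts were scaled by TMM and tested in edgeR 4.0.16 (R 4.3.3) with the quasi-likelihood test, in a model of each genotype and day with clone as a further term (for clone comparisons, of each clone, genotype and day), at a Benjamini-Hochberg adjusted p under 0.05 over all 16723 genes kept by edgeR's filter on low counts. CPM are normalised by TMM, and correlations used log2 CPM with a prior count of 2. Per-length levels divide CPM by the length of all annotated exons joined. DESeq2 1.42.0, other scalings and filters, each clone alone and leaving out each replicate were the alternatives. The edgeR comparisons of genotypes within a day were tried on simulated data in which 200 genes were changed. The simulated libraries were independent, without an effect of the replicate number. The day, clone, interaction and ratio tests were not checked in this way. Precision is limited by 3 replicates in each set, with 11351078 to 24349263 counts per library.

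Same-numbered RxraWT and RxraSA libraries of a clone and day deviated together in all 18 pairs (correlation 0.176 to 0.93, mean 0.71), so the numbers pair the genotypes within a day, whereas across days the 36 correlations ran from -0.325 to 0.882 (mean 0.389) and, as not every pair deviated together, the numbers were not taken as pairs. The genes named were the 8 members, Rxra, the 2 genes outside the 8 most like each member at an average log2 CPM of at least 3, and, from each list of other genes, at most 4 called genes with the largest change and any gene near 0. The members and lists were chosen with earlier results of these data known.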

Additional observations from a re-analysis of the deposited data

Results flagged for a closer look

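In 48 groups of 6 libraries of the 8 genes, 1 library stood apart from the rest by Dixon's criterion in 3, and chance gives about 1 in 20 groups. These were Cav1 in RxraSA replicate 2 of clone 66 at day 0 (482.1 CPM, the lowest of its group), Pacsin2 in RxraWT replicate 3 of clone 66 at day 0 (133.4 CPM, the highest) and Pacsin3 in RxraWT replicate 2 of clone 48 at day 0 (38.64 CPM, the highest).

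Of 72 tests of a difference between clones or genotypes in edgeR (the 8 genes in clone by time, genotype by time and clone by genotype), 4 passed, and all 4 were differences between clones in the change between days. The log2 difference of clone 66 from clone 48 was -0.5482 for Cav1 from day 0 to day 2 (adjusted p = 0.0424), -0.7481 for Cavin3 over the same step (adjusted p = 0.00918), -0.6991 for Cavin2 from day 0 to day 6 (adjusted p = 0.0339) and 0.7255 for Cavin3 from day 2 to day 6 (adjusted p = 0.0128). Clone and library pool cannot be told apart in these tests.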

How the results depend on the processing

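No member was called between genotypes under any alternative. Pacsin2 at day 2 against day 0 turned from 0.041 to -0.2162 with library size alone. For clone by time, the 2 members called from day 0 to day 2 became 1 with RLE size factors and 1 without a filter, and 0 to 3 when a replicate was left out. The 1 called from day 0 to day 6 became 2 in DESeq2 and 0 to 2 with a replicate left out, and the 1 from day 2 to day 6 became 0 to 1. The 1 called between clones at day 0 became 1 to 2. Log2 ratio changes over which calls were lost in RxraSA alone were 1.017 (Cav2 to Cav1, day 6 against day 0), 0.8174 (day 6 against day 2) and -0.827 (Cavin1 to Cav1, day 2), and in RxraWT alone 0.8015 (Cav2 to Cav1, day 6 against day 0). With a replicate left out, Cav2 to Cav1 ranged from 0.8735 to 0.9652 against day 0 and from 0.7855 to 1.054 against day 2, Cavin1 to Cav1 from -1.033 to -0.9742, Cavin3 to Cavin1 at day 2 from -1.345 to -1.12, and Cavin2 to Cavin1 at day 6 against day 0 from 1.292 to 1.468. Apart from the leave-outs and the constructions with fewer libraries, the cause was not tested.

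With the replicate number as a block, 6, 8 and 7 members were called between days, against 6 in each comparison without it, the additional ones being Cavin1 (0.3878, adjusted p = 0.00102) and Ehd2 (0.3597, 0.0253) at day 6 against day 0 and Ehd2 (-0.6625, 0.000154) at day 6 against day 2. For clone by time it called 3 members from day 0 to day 2, adding Cavin2 (-0.5789, adjusted p = 0.00215, edgeR), 2 from day 0 to day 6, adding Cav1 (-0.5192, 0.0153), and 1 from day 2 to day 6. The block changed no genotype or clone by genotype call of the members. All-gene counts for clone by time rose from 1144 to 2248, from 644 to 1369 and from 1033 to 2082. From 0 without the block, 1 gene was called between genotypes at day 2 with the block within each day, and 3 for clone by genotype at day 0, where 5 were called without a filter. A sign-flip test with the replicate block gave an adjusted p of 0.0402 for log2 changes of -0.7234 (Cavin1 to Cav1, day 6 against day 0), 1.063, 1.362 and 0.2994 (Cavin2 to Cavin1, day 2 and day 6 against day 0 and day 6 against day 2), -0.7655 and -0.8111 (Ehd2 to Cav1, day 6 against days 0 and 2) and 0.227 (Pacsin3 to Pacsin2, day 6 against day 0). Across days same-numbered libraries shared part of their deviation (mean correlation 0.389), but not in every pair (lowest -0.325), and no label states a shared source, so the fits with the block are given here only as alternatives.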
